A study of Homo sapiens with 6 samples.

Results

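MicroRNA genes were compared with the places where MYC was found on chromatin in MIAPaCa2, an established human pancreatic ductal adenocarcinoma cell line. The members are all genes of biotype miRNA in the RefSeq table of GRCh38.p14, 1913 genes on chromosomes 1 to 22, X and Y, plus MIR17HG, the host gene of the miR-17-92 cluster. They make 1914 of the 59679 genes of that table. Chromatin bound by MYC had been isolated with an antibody to MYC and sequenced (ChIP-seq), and the authors deposited a list of peaks for each library. All cells had first been kept in DMEM without serum for 48 hours and then spent 3 hours in fresh DMEM or in medium conditioned by cancer-associated fibroblasts (CM), with 2 immunoprecipitated libraries for each. The 2 input libraries were not analysed here. The labels leave it unsaid whether the libraries of 1 group are separate cultures, so the spread between them may be technical.

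A microRNA is cut from a longer transcript. The nuclear enzyme DROSHA with DGCR8 releases a hairpin, XPO5 exports it, DICER1 trims it, and the mature strand, held by an AGO protein, pairs with messenger RNAs mainly through its seed, bases 2 to 8. Many hairpins lie in introns of coding genes or inside long noncoding hosts, so the place that matters for their transcription can lie far from the hairpin. MYC is a transcription factor that binds mainly near gene starts with its partner MAX, with a preference for the E-box CACGTG. MIR17HG is a textbook MYC target, and let-7 microRNAs are known both for pairing with MYC messenger RNA and for being lowered when MYC is high.

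The clusters and families described first are tied together by shared seeds, so their mature sequences are shown here, 5′ to 3′, with the seed in capitals. Sequences are those of RefSeq for GRCh38.p14. Of the 1913 microRNA genes, 1774 were matched in the sequence table and 1736 had a mature sequence there. The cluster miR-17-92 and its paralogues miR-106b-25 and miR-106a-363 carry 4 seeds between them, and microRNAs of 1 seed are expected to share targets. The seed AAAGUGC occurred in 8 genes, among them miR-17, miR-20a, miR-106a, miR-106b and miR-93, which are known for targeting the cell cycle inhibitor CDKN1A.
miR-17-5p: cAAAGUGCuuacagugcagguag
miR-20a-5p: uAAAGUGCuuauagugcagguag
miR-106b-5p: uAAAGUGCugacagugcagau
miR-93-5p: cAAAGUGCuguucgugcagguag
miR-106a-5p: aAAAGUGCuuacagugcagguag
The seeds AAGGUGC and GUGCAAA, of miR-18 and miR-19, occurred in 3 genes each.
miR-18a-5p: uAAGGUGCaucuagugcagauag
miR-19a-3p: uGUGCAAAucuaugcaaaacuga
miR-19b-3p: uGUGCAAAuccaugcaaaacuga
The seed AUUGCAC occurred in 7 genes, among them miR-92a-1, miR-25 and miR-92b.
miR-92a-3p: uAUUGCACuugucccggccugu
miR-25-3p: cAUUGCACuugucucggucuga
miR-92b-3p: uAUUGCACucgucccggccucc
The let-7 seed GAGGUAG occurred in 14 genes. Its members, shown here for let-7i and for the 3 hairpins of the let-7a-1 cluster, are known for targeting RAS genes, HMGA2 and MYC.
let-7i-5p: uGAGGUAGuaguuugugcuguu
let-7a-5p: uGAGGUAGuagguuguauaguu
let-7f-5p: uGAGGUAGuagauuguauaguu
let-7d-5p: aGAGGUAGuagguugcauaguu
The seeds ACUGGCC and, in another pair, AACAGUC occurred in 2 genes each, and these genes were all bound in both CM libraries, as were 7.26% of all members. They were picked for the height of their CM peaks, so their being bound is no separate result. The genes of the second pair share their peaks and are 1 locus.
miR-193a-3p: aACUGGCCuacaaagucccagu
miR-193b-3p: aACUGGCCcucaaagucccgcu
miR-132-3p: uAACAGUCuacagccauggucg
miR-212-3p: uAACAGUCuccagucacggcc

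A gene was called bound in a library when a peak reached to within 1000 bp of either of its annotated ends, by at least 1 bp. A microRNA gene is short (median 80 bp, against 24115 bp for a coding gene), so its windows nearly coincide and cover less sequence than the separate windows of a long gene. The strength of a peak is the authors' own whole-number score, given below as its percentile among the peaks of the same list. Percentiles depend on the length of a list, so values of different lists are set side by side without reading a change from them. The lists held 15304 and 12797 peaks for CM libraries 1 and 2 and 4657 and 7652 for DMEM libraries 1 and 2. The files give no read depth, so a library with fewer peaks cannot be told apart from one sequenced less deeply.

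MIR17HG was bound in all 4 libraries, and the highest peak that served the call stood at percentile 92.0 or above in each list. The gene lies on chromosome 13 at 91347687 to 91354577 on the + strand (GRCh38), and the nearest end of a coding gene, that of GPC5, is 44044 bp away. In CM library 1 a single peak of 4066 bp, from 91346598 to 91350663, had a score of 1299, at percentile 99.8. CM library 2 had a single peak of 2973 bp, from 91347027 to 91349999, with a score of 944 at percentile 99.6. The locus held 2 separate peaks in each DMEM library. In DMEM library 1 these ran from 91347212 to 91348885 (score 170, percentile 92.0) and from 91349010 to 91350315 (score 324, percentile 98.6). In DMEM library 2 they ran from 91347376 to 91348030 (score 214, percentile 89.4) and from 91348168 to 91349932 (score 427, percentile 97.8). In both DMEM libraries the peak inside the gene scored above the peak over its start, whereas in CM 1 interval covered both places. Each of these orders holds within 1 list. The inner peak of DMEM library 1 lies over 1000 bp from both ends of MIR17HG and is not part of its call.

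**Figure D1:**
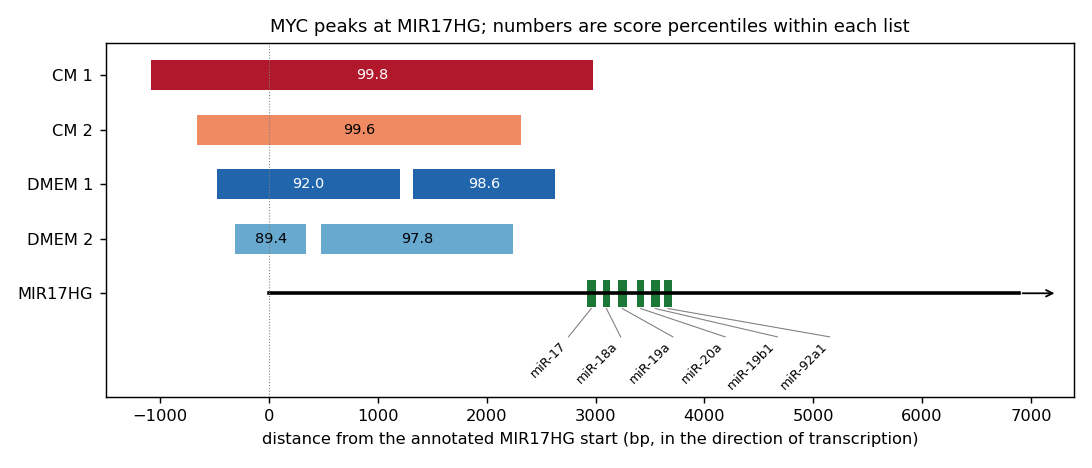
MYC peaks at MIR17HG in the 4 libraries. The x axis is the distance in bp from the annotated start in the direction of transcription, each bar is 1 peak with its score percentile within its own list, and the green marks are the 6 hairpins. The CM libraries have 1 broad peak each and the DMEM libraries 2 each, and only the peak of CM library 1 reaches a hairpin, that of miR-17.

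The 6 hairpins of miR-17-92 begin 2918 to 3627 bp downstream of that start and are transcribed together, so their separate calls describe how far the peaks reach. MIR17, MIR18A and MIR19A were bound in all 4 libraries. MIR20A, MIR19B1 and MIR92A1 were bound in CM library 1 and DMEM library 1 only. The border runs between MIR19A, whose nearest peak was 892 bp away in CM library 2 and 959 bp away in DMEM library 2, and MIR20A, at 1066 bp and 1133 bp. With a window of 2500 bp all 6 hairpins were bound in all 4 libraries, and with 500 bp MIR17 and MIR18A were bound in 2, MIR19A and MIR20A in 1 and the last pair in 0. With the peak midpoint required to lie in the window, MIR17 was bound in DMEM library 1 alone and the other 5 hairpins in 0 libraries. The call for MIR17HG itself stayed at 4 libraries under every window, score and list length tried. Counted by members bound in any library with the window of 1000 bp, miR-17-92 was the largest of all microRNA clusters.

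The promoter window of MIR17HG is shown because the peaks of all 4 libraries cover its annotated start. The window is chr13:91347437-91347736 on the + strand, 250 bases before the start and 50 from it onward, with the latter in capitals.
MIR17HG promoter: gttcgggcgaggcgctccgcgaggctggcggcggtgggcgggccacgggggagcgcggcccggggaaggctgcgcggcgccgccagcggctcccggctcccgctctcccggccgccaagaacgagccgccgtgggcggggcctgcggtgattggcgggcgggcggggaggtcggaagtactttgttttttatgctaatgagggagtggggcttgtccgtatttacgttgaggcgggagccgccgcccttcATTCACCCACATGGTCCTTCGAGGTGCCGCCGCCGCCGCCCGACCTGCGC
None of the searched motifs is in these 300 bases: neither the E-box CACGTG nor its variant CACGCG, read on the other strand as CGCGTG. The peaks extend well beyond this window, into sequence that was not used here.

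The paralogue cluster miR-106b-25 gave a different picture at the hairpins and the same one at the host. MIR25, MIR93 and MIR106B lie within an intron of MCM7, a subunit of the replicative helicase, on chromosome 7 from 100093560 to 100094074 on the − strand. None of the 3 was bound in any library, and the nearest peaks lay 3639 to 4578 bp away. The annotated starts of MCM7, the nearest of them 6455 to 6886 bp upstream of the hairpins, were bound in all 4 libraries, with percentiles of 98.7 and 93.3 in CM and 98.9 and 98.7 in DMEM. In CM library 1 this peak ran from 100099809 to 100102317. The MCM7 promoter window, chr7:100101348-100101647 on the − strand, holds the E-box CACGTG, in capitals, 25 bases before the outermost start.
MCM7 promoter: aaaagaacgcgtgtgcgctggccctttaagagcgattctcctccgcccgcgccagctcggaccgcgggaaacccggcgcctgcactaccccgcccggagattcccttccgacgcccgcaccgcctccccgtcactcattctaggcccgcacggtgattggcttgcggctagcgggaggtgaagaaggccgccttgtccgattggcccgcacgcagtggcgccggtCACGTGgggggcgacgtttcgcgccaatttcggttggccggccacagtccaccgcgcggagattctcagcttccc
It also holds CGCGTG, 243 bases before that start. The third cluster, miR-106a-363 on chromosome X, had neither. Its 6 hairpins were unbound in all 4 libraries, with the nearest peaks about 290 kb away, and the start of their host MIR106AHG was unbound too. Hairpins of 1 seed thus lay in bound and in unbound clusters. Of the 8 genes with the seed AAAGUGC only MIR17 was bound in both CM libraries, and of the 7 with AUUGCAC only MIR92B was. MIR20A and MIR92A1 hold these seeds in the bound miR-17-92 transcript. They miss the call because the CM library 2 peak lies 1066 and 1315 bp from them. MIR92B is a single hairpin on chromosome 1, 316 bp from an end of THBS3, with percentiles of 93.0 and 97.1 in CM and 95.2 and 90.8 in DMEM.

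Of the 12 let-7 genes (including MIR98), 1 was bound. MIRLET7I, on chromosome 12 at 62603686 to 62603769 and 3210 bp from the nearest coding end, that of MON2, was bound in all 4 libraries. Its percentiles were 95.6 and 91.6 in the CM lists and 78.2 and 77.4 in the DMEM lists. The start of its host MIRLET7IHG lies 943 bp upstream of the hairpin and was covered by the same peaks. With a window of 500 bp the call for MIRLET7I was lost in DMEM library 2, and with the peak midpoint in the window it was lost in both DMEM libraries.

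Starts farther upstream of let-7 hairpins were read as well. An annotated start of a gene on the same strand, upstream of the hairpin, was known for 11 of the 12, and was bound in both CM libraries for 9, at 5 hosts, and in both DMEM libraries for 5. Of all 990 microRNA genes with such a start, 48.0% and 22.0% had it bound in both CM and in both DMEM libraries. The start of MIRLET7A1HG, 9699 to 12576 bp upstream of let-7a-1, let-7f-1 and let-7d (MIRLET7A1, MIRLET7F1 and MIRLET7D) on chromosome 9, was bound in all 4 libraries, with percentiles of 98.4 and 96.3 in CM and 95.9 and 97.5 in DMEM. The start of WDR82, host of let-7g, was bound in all 4 at lower percentiles, 81.6 and 61.4 in CM and 56.5 and 51.5 in DMEM. A start of HUWE1, host of MIR98 and let-7f-2, was bound in the CM libraries only, at 46.0 and 61.4. For let-7a-3 and let-7b the call rests on a start of LOC124905135, near which the peaks of the 2 CM libraries (percentiles 69.3 and 57.5) do not overlap each other; MIRLET7BHG, their named host, had no peak at its own start. The hosts MIR99AHG (let-7c) and MIR100HG (let-7a-2) had no peak at an annotated start in any library. For let-7e no upstream start was known. The start listed for its host SPACA6 lies downstream of the hairpin, and it had no peak either.

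**Figure D2:**
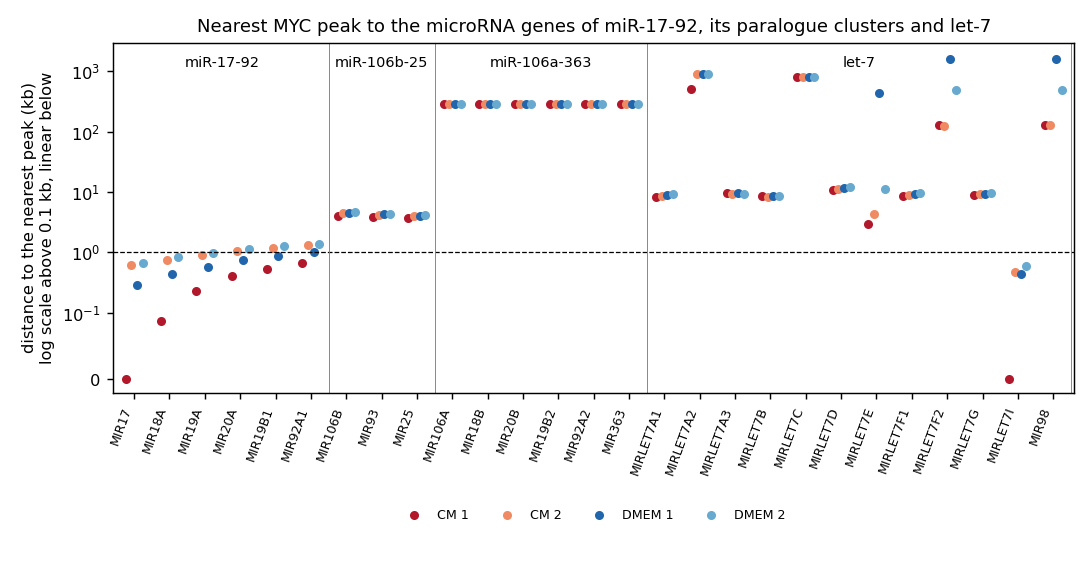
Distance from each hairpin to the nearest MYC peak in the 4 libraries, for miR-17-92, its paralogue clusters and let-7. The y axis is in kb, on a log scale above 0.1 kb and linear below, each point is 1 library, and the dashed line marks the window of 1000 bp. Only the miR-17-92 hairpins and MIRLET7I have points under the line, and miR-106a-363 lies about 290 kb from any peak.

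Over all 1914 members, 169 and 142 were bound in CM libraries 1 and 2 (8.83% and 7.42%) and 61 and 90 in DMEM libraries 1 and 2 (3.19% and 4.70%). By the same rule, 20.2%, 18.6%, 7.71% and 12.7% of all 59679 genes were bound in these libraries. The shorter windows of a microRNA gene are a built-in difference between these shares, and no test was made of them. Bound in both CM libraries were 139 members (7.26%, against 17.7% of all genes), at 129 separate loci when members served by 1 peak are counted once. Bound in both DMEM libraries were 53 members at 48 loci (2.77%, against 7.23%), and each of the 53 was also bound in both CM libraries (all 4 libraries: 7.21% of all genes). A further 40 members had both CM libraries and 1 DMEM library (against 5.53% of all genes), in 35 cases DMEM library 2, the longer list. In CM only, that is in both CM and neither DMEM library, 46 members at 45 loci were bound (2.40%, against 4.99%). No member, and 0 of all genes, was bound in both DMEM libraries and neither CM library. MIR7155, near CCDC88B, was the only member bound in a DMEM library (DMEM library 2, percentile 35.0) and in no CM library.

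The CM libraries had more bound members than the DMEM libraries by a ratio of geometric means of 2.09, with 155.5 ± 19.1 (SD, n = 2) in CM and 75.5 ± 20.5 (SD, n = 2) in DMEM. The groups did not overlap, and the exact two-sided permutation test over the 6 relabellings gave p = 0.333, the smallest that 2 against 2 allow. The lengths of the lists differed by a ratio of 2.34, and the number of all genes bound by 1.96. When every list was shortened to its 4657 highest peaks, the ratio for members was 1.30 and only 6 members were left as bound in both CM and neither DMEM library. Peaks at members made up 1.28% and 1.30% of the CM lists and 1.42% and 1.33% of the DMEM lists.

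The median peak of members bound in CM only stood lower in the CM lists than that of members shared with DMEM. The median percentiles in CM libraries 1 and 2 were 91.6 and 89.9 for the 53 members bound in all 4 libraries, 74.3 and 69.2 for the 40 with 1 DMEM library, and 45.5 and 42.4 for the 46 bound in CM only. All genes of the table showed the same order, with 89.3 and 86.8 for all 4 libraries, 68.5 and 61.4 with 1 DMEM library, and 48.8 and 40.3 in CM only.

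**Figure D3:**
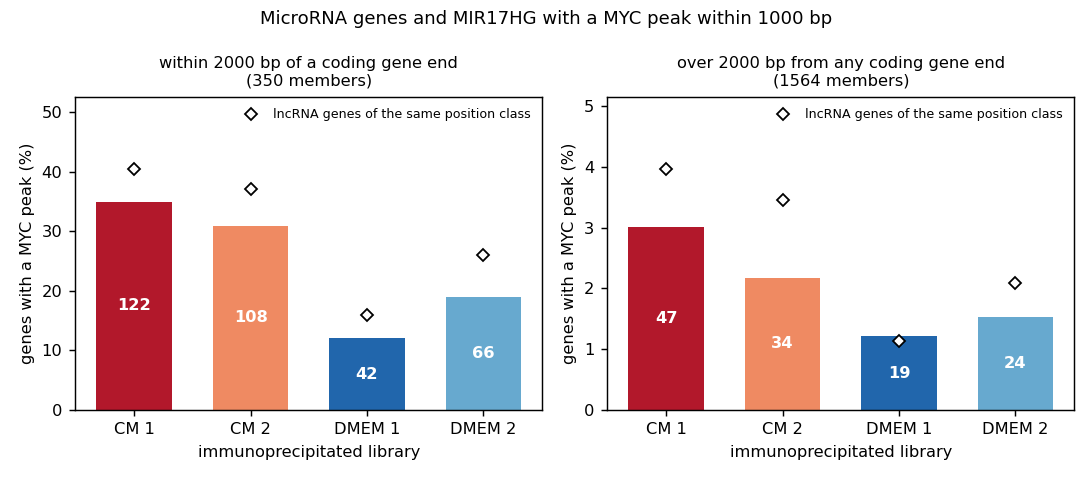
Share of members with a MYC peak within 1000 bp, by library, for members within 2000 bp of a coding gene end (left) and farther away (right). The y axes are percent of the 350 and 1564 members, from 0, with the number of bound members in each bar, and diamonds are lncRNA genes of the same position class. Both panels are higher in CM than in DMEM, and the left axis spans about 10 times the right.

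Most bound members lay near coding genes. Of the 350 members within 2000 bp of an end of a coding gene, 122, 108, 42 and 66 were bound in CM 1, CM 2, DMEM 1 and DMEM 2 (34.9%, 30.9%, 12.0% and 18.9%). Of the 1564 farther away, the counts were 47, 34, 19 and 24 (3.01%, 2.17%, 1.21% and 1.53%). In both CM libraries 106 of the near members (30.3%, 101 loci) and 33 of the others (2.11%, 28 loci) were bound. Long noncoding RNA genes of the same position classes stood at 35.4% and 3.12% and coding genes at 39.1%. The CM-to-DMEM ratio was 2.18 for near members (115.0 ± 9.9 against 54.0 ± 17.0, SD, n = 2) and 1.87 for the others (40.5 ± 9.2 against 21.5 ± 3.5, SD, n = 2), each with exact permutation p = 0.333. The difference between these ratios was not tested. Just inside the border of 2000 bp lay MIR6735, at 1996 bp from HYI, and just outside it MIR4737, at 2017 bp from HEATR6.

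Nearly every bound near member had a coding gene end within 1000 bp of its peak. The distances that define near and bound largely fix this in advance. Of the 106 near members bound in both CM libraries, the peak of CM library 1 also lay within 1000 bp of a coding gene end for 105, and at an annotated transcript start for at least 83. Starts on chromosome 8, where 6 of these members lie, were not used here, and the same holds for 2 of the 33 members farther away. The 10 near members with the highest CM peaks were each bound in all 4 libraries, as were 39 of all 350 near members (11.1%). They were picked by CM percentile, which ran higher where all 4 libraries were bound, so this is no separate result. MIR1292 lies in NOP56, a core protein of box C/D snoRNPs, and had percentiles of 99.5 and 99.5 in CM and 99.5 and 99.0 in DMEM. MIR3651 lies in IARS1, the isoleucyl-tRNA synthetase, and MIR3912 lies 356 bp from NPM1, a nucleolar histone chaperone. MIR3651 had percentiles of 99.7, 99.8, 97.1 and 99.3 in CM 1, CM 2, DMEM 1 and DMEM 2. MIR3912 had 99.9, 99.7, 23.8 and 99.2. Each is the highest peak within 1000 bp of the hairpin, so the 23.8 of DMEM library 1 need not be the highest at NPM1. MIR7111 and MIR6850 lie at the ribosomal protein genes RPL10A and RPL8, and their lowest percentile in any library was 96.7. Others were MIR320A beside POLR3D, a subunit of RNA polymerase III, MIR6516 in SNHG20 and SEC14L1, MIR4674 beside NOTCH1, and the overlapping pair MIR3913-1 and MIR3913-2 beside CCT2, a chaperonin subunit. In none of these cases can a peak for the microRNA be told apart from one for the coding gene.

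Among the 39 near members bound in CM only, the highest by mean CM percentile were MIR5090 beside LRWD1 (percentiles 92.9 and 85.2), MIR4733 beside NF1 (83.3 and 78.0) and MIR425 (85.2 and 74.8); these were picked after their values were seen. MIR425 and MIR191 are processed from introns of DALRD3, beside NDUFAF3, and the same CM peaks served both. In DMEM library 2 a peak lay 729 bp from MIR191 and 1204 bp from MIR425, so the window edge splits this pair. MIR423 and MIR3184, which overlap on opposite strands in NSRP1, were bound in CM only at 62.0 and 69.1, with the nearest DMEM peak 186576 bp from MIR423.

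**Figure D4:**
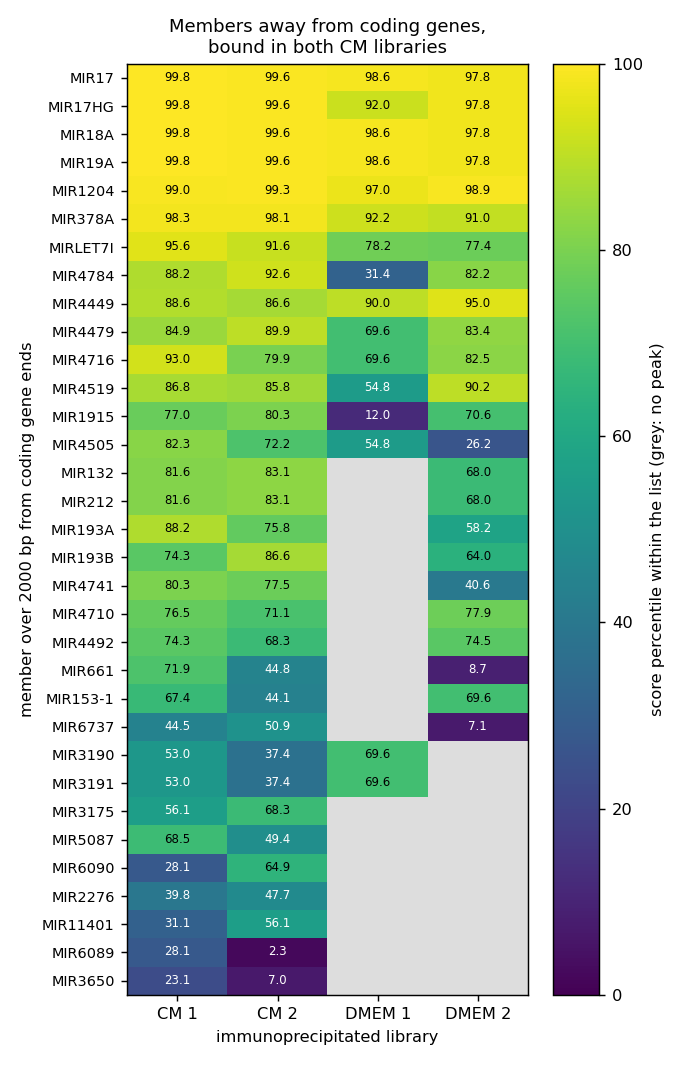
Score percentile, within each list, of the highest MYC peak at the 33 members over 2000 bp from coding gene ends that were bound in both CM libraries. Columns are the 4 libraries, colour and printed value give the percentile from 0 to 100, and grey marks no peak within 1000 bp. The 14 members bound in all 4 libraries stand at the top, 12 were bound in 1 DMEM library, and the 7 bound in CM only stand at the bottom.

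The 33 members away from coding ends that were bound in both CM libraries are fewer independent places than their number, since 4 of them are MIR17HG and its hairpins. The peak of CM library 1 lay at an annotated transcript start for at least 20 of the 33 and within 1000 bp of a coding gene end for 2. The second count is kept small by the distance that defines these members. After miR-17-92 the highest was MIR1204, within the long noncoding RNA gene PVT1, 53011 bp from the end of MYC itself, on chromosome 8 at 127795962 to 127796028. Its percentiles were 99.0 and 99.3 in CM and 97.0 and 98.9 in DMEM. MIR378A, in an intron of PPARGC1B, a coactivator of mitochondrial genes, had 98.3 and 98.1 in CM and 92.2 and 91.0 in DMEM; in both CM libraries the peak reached the PPARGC1B end, 2515 bp away. MIR4449, inside the noncoding gene DANCR, had 88.6 and 86.6 in CM and 90.0 and 95.0 in DMEM. Besides MIRLET7I, described above, the others bound in all 4 were MIR4519 in BCL7C, MIR4716 in GALK2, MIR4479 in TRAF2, MIR4784 in MZT2A, MIR1915 in MIR1915HG and MIR4505 in MIDEAS. MZT2A has a near-identical copy, MZT2B, so the place of its reads is uncertain.

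The 2 loci of miR-193 and the pair miR-132 and miR-212, whose sequences stand above, had the same calls in all 4 libraries. MIR193A, on chromosome 17, and MIR193B, on chromosome 16, are separate genes known as brakes on growth signalling. MIR193A had percentiles of 88.2 and 75.8 in CM and 58.2 in DMEM library 2, and MIR193B 74.3 and 86.6 in CM and 64.0 in DMEM library 2. MIR4741 in RBBP8 had 80.3 and 77.5 in CM and 40.6 in DMEM library 2. MIR132 and MIR212, a pair known as a target of the factor CREB, share their peaks and lie on chromosome 17 at 2049908 to 2050380, with MIR132 5095 bp and MIR212 4723 bp from HIC1. They had 81.6 and 83.1 in CM and 68.0 in DMEM library 2. None of these 5 had a peak within 1000 bp in DMEM library 1, the shortest list. Of the seeds held by the bound members, 157 in all over the 121 with a mature sequence, 4 occurred at more than 1 bound locus, and the seed of miR-193 was 1 of these 4. All mature sequences held 1915 distinct seeds, and how many of these occur at more than 1 locus was not counted. Another of the 4, GGGCUGG, named after its values were seen, occurred in 4 genes. Of these, MIR4492, MIR5001 and MIR762, at 3 loci, were bound in both CM libraries, and 2 of them in all 4 libraries. Among all members the shares for these calls were 7.26% and 2.77%.

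The 7 members away from coding ends bound in CM only had percentiles from 2.3 to 68.5 in the CM lists. They were MIR3175 in CHD2 (56.1 and 68.3), MIR5087 (68.5 and 49.4), MIR6090 in ETS1 (28.1 and 64.9), MIR2276 in SPATA13 (39.8 and 47.7, with a DMEM library 1 peak 1013 bp away, against 958 and 957 bp in CM), MIR11401 in SLC7A5 (31.1 and 56.1), MIR6089 (28.1 and 2.3) and MIR3650 in LIFR (23.1 and 7.0). They are 0.448% of the 1564 members, beside 1.08% of lncRNA genes of that position class. MIR6089 lies in the region that chromosomes X and Y share and MIR5087 in a duplicated part of chromosome 1, so the place of their reads is uncertain. None of the 7 reached percentile 90 in either CM list.

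The hairpins of the other lists are read beside all members, of which 9.04% were bound in any library and 7.26% in both CM libraries, or 3.07% and 2.11% of those away from coding ends. At these shares a list of this size is expected to hold few bound hairpins. Of 24 microRNAs reported as lowered by MYC, such as miR-15, miR-16, miR-26, miR-29, miR-30 and miR-34a, 0 were bound in both CM libraries, and MIR30A was bound in CM library 1 alone at percentile 20.5. For 16 of them a same-strand upstream start was annotated, and it was bound in both CM libraries for 8 and in both DMEM libraries for 4, near the 48.0% and 22.0% of all microRNA genes with such a start. These hosts were NFYC (miR-30e and miR-30c-1), DLEU2 (miR-15a and miR-16-1), SMC4 (miR-15b and miR-16-2), CTDSP1 (miR-26b) and CTDSP2 (miR-26a-2). The NFYC start had percentiles of 82.3 and 81.1 in CM and 73.7 and 82.2 in DMEM. The outer DLEU2 start had 81.6 and 73.3 in CM and no DMEM peak, while an inner start was bound in all 4 libraries at 68.5, 31.4, 56.5 and 26.2. SMC4 stood at 29.4 and 32.9 in CM, from peaks that do not overlap each other, with no DMEM peak.

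Of the 6 genes of the epithelial miR-200 family, which restrain ZEB1 and ZEB2, MIR141 was bound in CM only, at percentiles 20.5 and 73.3. Its CM peaks lay downstream of it, within 1000 bp of a coding gene end, and DMEM library 2 had a peak 1062 bp from it. MIR200C, on the same transcript, had different CM peaks nearest, upstream at 1242 and 1314 bp, just outside the window. All 6 genes had an annotated host start, bound in both CM libraries for 2 and in both DMEM libraries for 0. For all microRNA genes with such a start the shares were 48.0% and 22.0%. These 2, MIR200C and MIR141, share the start of MIR200CHG, at 89.7 and 88.1 in CM and 2.5 in DMEM library 2. Of the 30 microRNAs often studied in cancer, 0 had a peak at the hairpin in any library, miR-21, miR-155 and miR-210 among them. Of the 23 of these with an annotated host start, 6 had it bound in both CM libraries and 2 in both DMEM libraries, against the same 48.0% and 22.0%. VMP1, the coding gene whose transcripts run into the region of miR-21, was bound at its start at 90.4 and 89.5 in CM and 66.6 and 81.0 in DMEM. MIR23AHG, host of miR-23a, miR-27a and miR-24-2, was bound in CM only, at 85.2 and 67.5. SKA2, host of miR-301a, was bound in all 4 at 57.9, 27.4, 17.0 and 3.0, and MIR130AHG in CM only at 44.0 and 24.8. The 31 microRNAs of acinar, islet, liver, muscle, nerve, blood and fibroblast cells had 0 bound hairpins in any library. Of the 19 with an annotated host start, 2 had it bound in both CM libraries and 2 in both DMEM libraries, against 48.0% and 22.0%. In each case these were miR-128-1 in R3HDM1 and miR-7-1 in HNRNPK.

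The host start is a readout that the choice of members did not use. Of all microRNA genes, 990 had a same-strand gene start annotated upstream, and it was bound in both CM libraries for 475 (48.0%) and in both DMEM libraries for 218 (22.0%). Over all 27305 genes with an annotated start the shares were 30.6% and 12.6%. The first pair of shares counts hairpins and the second counts genes, coding and noncoding together. Hosts were not matched to other genes by class, so the difference is not read as a trait of microRNA hosts. Of the 475, 401 hairpins were not bound in any library, and of the 218, 174 were not. The 475 rest on 419 hosts, and a host with several starts has several chances to be called, as has any gene of the comparison. These values count starts that lie upstream of a hairpin and do not show that the hairpin is transcribed from them.

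Clusters are read beside all members, of which 9.04% were bound in any library and 7.26% in both CM libraries. A cluster has several chances to hold a bound gene. Joining microRNA genes within 10000 bp gave 155 clusters of 471 genes. Of these clusters, 18 had a bound gene in any library, 14 had 1 in both CM libraries and 8 had more than 1. Besides miR-17-92 these 8 were pairs, such as MIR132 and MIR212, MIR425 and MIR191, and MIR3960 and MIR2861. Some pairs, such as MIR3913-1 and MIR3913-2 or MIR423 and MIR3184, are overlapping hairpins and so a single place. The 2 clusters with at least 10 genes lie on chromosome 19 (MIR512-1 to MIR519A2, 46 genes) and chromosome 14 (MIR379 to MIR656, 42 genes). Both are known for imprinted expression. They held no bound gene in any library, where 3.07% of all members away from coding ends were bound in any library.

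E-box letters were counted in the promoter windows of the hosts. CACGTG was found in 7.26% of the 35116 promoter windows of the table, and in 1 of the 22 windows at starts of same-strand hosts of the away members bound in both CM libraries, that of BBC3 (4.55%). CACGCG or CGCGTG was found in 11.4% of all windows and in 3 of these 22 (13.6%). In the 28 windows of hosts of miR-17-92, its paralogues and let-7, each of the searches found 1, MCM7 in both (3.57%). Every annotated start of a host was read, with or without a peak, such as the unbound starts of MIR99AHG and MIR100HG. None of these shares is therefore that of MYC-bound starts. The search read both strands, and a window without a match shows only that these letters are not in its 300 bases.

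The genes that make and use microRNAs are coding genes and no members, and are given for the pathway. Of 17, both CM libraries had peaks at 11 and both DMEM libraries at 5, beside 39.1% and 15.9% of coding genes. Bound in all 4 were XPO5, which exports hairpins, DICER1 and its partner PRKRA, and the effectors AGO1 and AGO3, which are neighbours. On chromosome 1 AGO1 ends at 35930532 and AGO3 begins at 35930718. A peak there would call both, so these may not be 2 separate calls. DROSHA and the terminal uridylyltransferases TUT4 and TUT7 were bound in CM only. DGCR8 and TNRC6C had both CM libraries and DMEM library 2, and TARBP2 had both CM libraries and DMEM library 1. TNRC6B was bound in CM library 1 alone, and AGO2, AGO4, TNRC6A and the let-7 inhibitors LIN28A and LIN28B in no library.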

How the data were processed

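MYC ChIP-seq peak lists of the 4 immunoprecipitated MIAPaCa2 libraries were used, 2 for CM and 2 for DMEM. The submitters' processing notes name MACS2 2.1.1.20160309 and Bowtie2 2.3.4 on GRCh38, with Trim Galore 0.4.3, Picard 2.9.0 and SAMtools 1.3.1. The sources used here do not state settings or controls. For each peak the authors deposited an interval and a whole-number score, of at least 13, whose scale the files do not state; it served only to rank or filter peaks of the same list. Peaks were called per library, and the authors' common lists entered as an alternative only. The files hold no read counts, so the precision of a call is unknown, and a missing peak can be a peak under the threshold.

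Genes came from the RefSeq table of GRCh38.p14, and strands, starts and sequences from its sequence tables. Of the 1914 members, 1775 had a strand. The 2 members on chromosome Y stayed in the counts, although the lists hold 0 peaks there. Bound means at least 1 bp of a peak within 1000 bp of an annotated end; a condition needs both its libraries, whose peaks need not overlap. Loci count genes served by 1 peak once. Libraries were compared by an exact permutation test of log2 bound genes. The calling code was tested on simulated peaks: 200 of 200 planted at 1000 bp were found, and 0 at 1001 bp. Named were the miR-17-92, paralogue and let-7 genes, listed microRNAs bound in any library, the 15 away and 10 near members with the highest mean CM percentile, up to 8 CM-only away members, and any DMEM-only member; 1 of the near members is not reported here. Members and lists were chosen with earlier results of these data known. Python 3.11.15 with numpy 2.4.6, pandas 2.3.3 and matplotlib 3.10.9 was used.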

Additional observations from a re-analysis of the deposited data

How the results depend on the processing

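Windows, peak midpoints, a minimum score, equal list lengths, the authors' common lists, other distances to coding genes and leaving out each library were tried. The ratio of CM to DMEM over all members was recomputed under the windows, midpoints, minimum score, equal list lengths and left-out libraries, and stayed above 1 in each. With a window of 500 bp, 34 members were bound in both DMEM libraries and 33 in all 4, in place of 53 and 53. With 2500 bp these counts were 86 and 86, and 62 away members were bound in both CM libraries in place of 33. With lists of equal length, 69 members were bound in both CM libraries in place of 139, 21 away from coding ends, and 6 were bound in CM only in place of 46; the ratio was 1.30. The authors' common lists gave 88 members in CM only, since a peak found in a single DMEM library is not in them. Separating at 1000 bp from coding ends gave 50 away members in both CM libraries. Leaving out 1 library gave 142 to 169 members bound in CM, 61 to 90 in DMEM, 53 to 88 in all remaining libraries, 49 to 81 in CM only, 34 to 47 away from coding ends, and ratios of 1.72 to 2.54. CM-only members numbered 72 without CM library 2 and 81 without DMEM library 2, and leaving out DMEM library 1 gave 90 for DMEM and 88 for all libraries; with 1 library left a condition needs only that library.

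With the replicate number as a block the ratio was 2.09, with an exact sign-flip p of 0.500, the smallest that 2 pairs allow; within pairs it was 2.77 and 1.58. The labels do not say that a number marks a shared culture or day, and the log2 percentile differences of same-numbered libraries correlated at 0.49 over the 53 members bound in all 4 libraries and at 0.05 over the 4305 such genes.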
